A study of Mus musculus with 6 samples.

Results

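Complement is a set of proteins that tag microbes, debris and synapses and draw phagocytes to them. The 9 complement genes described here were taken by name from the 36528 gene identifiers in the files: the 3 chains of C1q (C1qa, C1qb, C1qc), the central component C3, the convertase components C4b and Cfb, properdin (Cfp) and the receptors C3ar1 and C5ar1. All 9 passed the filter on low counts. The rule that names them uses no measured value, but the set was chosen with earlier results of these data known. RNA came from mouse brain microglia kept in vitro, in 3 groups of 2 libraries. The first is labelled as untreated Cop1 KO microglia under the name Loxp, Cop1 encoding a ubiquitin ligase. The second is wild-type microglia given LPS (lipopolysaccharide, a bacterial wall component sensed by Toll-like receptors), and the third is untreated wild-type microglia. The sources used here do not give the Cre driver, how Cop1 was lost, the strain, the age of the animals or the LPS dose and duration. Nor do they say whether the 2 libraries of a group came from separate animals or cultures, so any p-value sets a difference against the spread of these libraries alone, which may be technical.

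C1q binds its targets and starts the classical pathway, which cleaves C4 and C2 and then C3. Factor B, the product of Cfb, joins cleaved C3 into the convertase of the alternative pathway, which properdin stabilises and which cleaves more C3. The small fragments C3a and C5a signal through C3ar1 and C5ar1. In the brain, microglia are the main source of C1q, C3 is made by microglia and by reactive astrocytes, and C1q and C3 take part in the removal of synapses.

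Each library held between 20568144 and 22553708 counts. Cop1 itself was at 8.06 and 9.23 CPM (reads per 1000000 counts, with TMM scaling) in Cop1 KO libraries, against 12.7 and 11.5 CPM in untreated WT libraries, a log2 fold change of −0.49 (SE 0.11, edgeR quasi-likelihood test, adjusted p = 0.00016). In WT LPS libraries it was at 23.4 and 27.2 CPM, a rise of 1.06 against untreated WT (SE 0.10, adjusted p = 1.7e-14). The fall in Cop1 KO was partial, and which exons were deleted is not given, so gene counts check the label only in part; with limma on the deposited normalised values the adjusted p of the fall was 0.058. Csf1r, the receptor that microglia need to live, was high in every library, at 4060 and 4024 CPM in Cop1 KO, 931 and 940 CPM in WT LPS and 2185 and 2190 CPM in untreated WT. The homeostatic markers P2ry12 and Tmem119 lay between 1.23 and 10.7 CPM in all 6 libraries. The 11 astrocyte markers summed to 14.3 and 13.3 nRPKM (the authors' normalised RPKM) in Cop1 KO libraries, 183 and 184 nRPKM in WT LPS and 151 and 150 nRPKM in untreated WT.

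The complement genes differed widely in level. In nRPKM, which is per gene length, C1qc was highest in Cop1 KO libraries at 1390 ± 20.7 and in untreated WT libraries at 818 ± 7.50, followed in both by C1qb, C1qa, C3ar1, C5ar1, Cfp, C3, Cfb and C4b (mean ± SD, n = 2 each). In WT LPS libraries C1qb was highest at 1209 ± 54.3 nRPKM, and C3 at 357 ± 1.51 nRPKM moved above C3ar1, while Cfb at 92.4 ± 3.58 nRPKM moved above C5ar1 and Cfp. The ranges of the 2 libraries of neighbouring genes did not overlap in any group. Together the 9 genes took 0.829% and 0.821% of all counts in Cop1 KO, 0.717% and 0.698% in WT LPS and 0.588% and 0.582% in untreated WT.

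**Figure D1:**
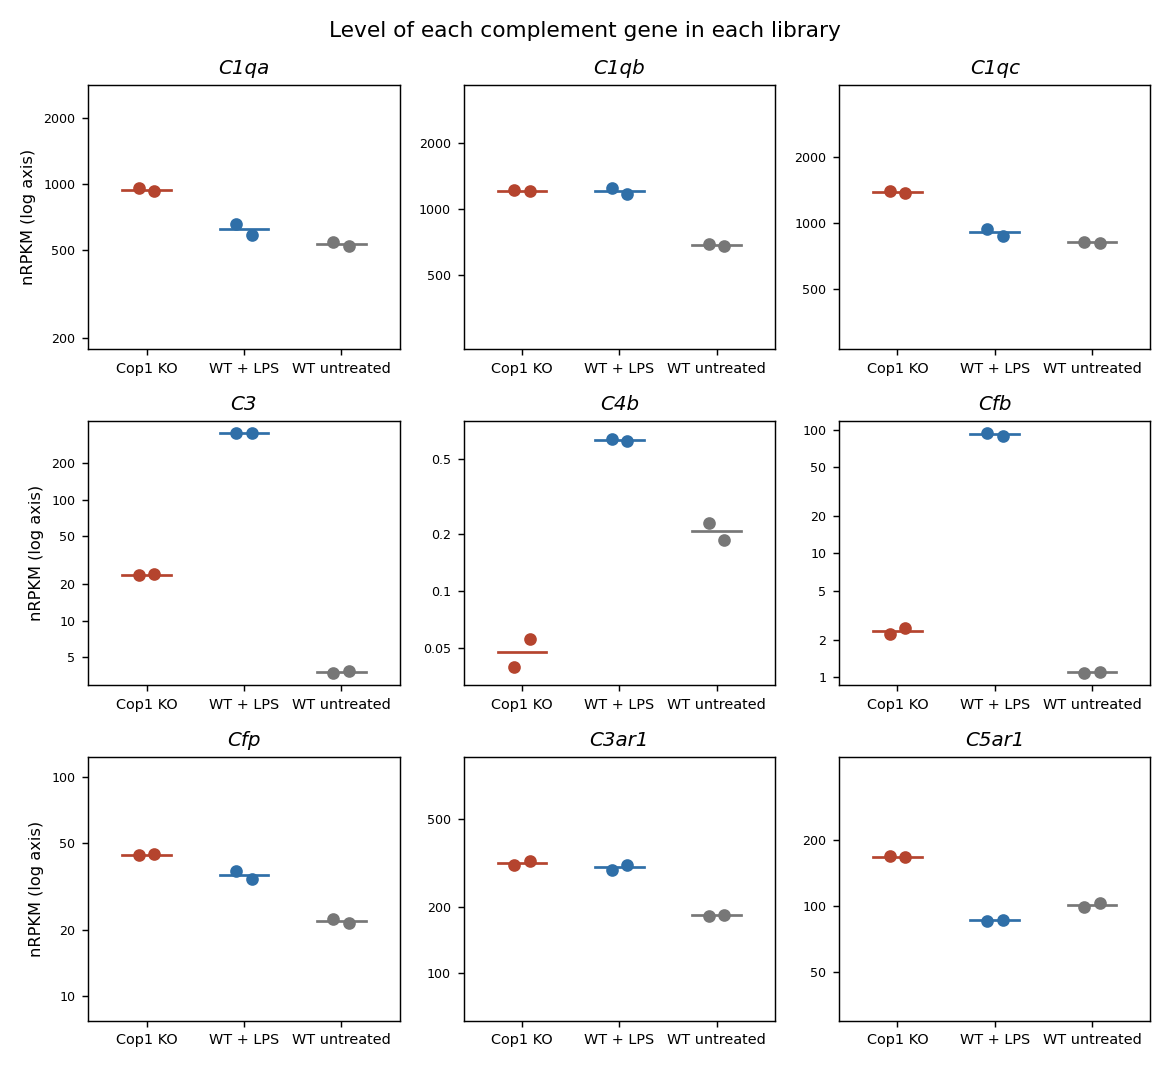
Level of each of the 9 complement genes as nRPKM on a log axis, 1 point a library and a line at the mean of the 2 libraries of a group. Cop1 KO libraries were above untreated WT libraries in 8 panels and below them for C4b, and WT LPS libraries stood far above both for C3 and Cfb.

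Against untreated WT microglia, Cop1 KO microglia had higher mRNA of 8 of the 9 complement genes and lower C4b, each past an adjusted p of 0.05. The background was high: 58.4% of the 15585 genes tested were called in this comparison, 28.1% as higher and 30.3% as lower. The median log2 fold change of the 9 genes was 0.69, beside −0.01 over all genes. Against untreated WT, WT LPS microglia had 6 of the 9 genes higher, C5ar1 lower, and C1qa and C1qc not called. There 73.7% of genes were called, 30.2% higher and 43.4% lower, and the median log2 fold change was 0.56 for the 9 genes and −0.18 over all genes. With library size alone, 4 of the 9 were higher and 3 lower in WT LPS, and with median-of-ratios factors 8 were higher and 1 lower. Of the 15585 genes, library size alone called 2678 higher and 10770 lower there, and median-of-ratios factors 5579 higher and 5667 lower. Both comparisons share the untreated WT libraries.

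**Figure D2:**
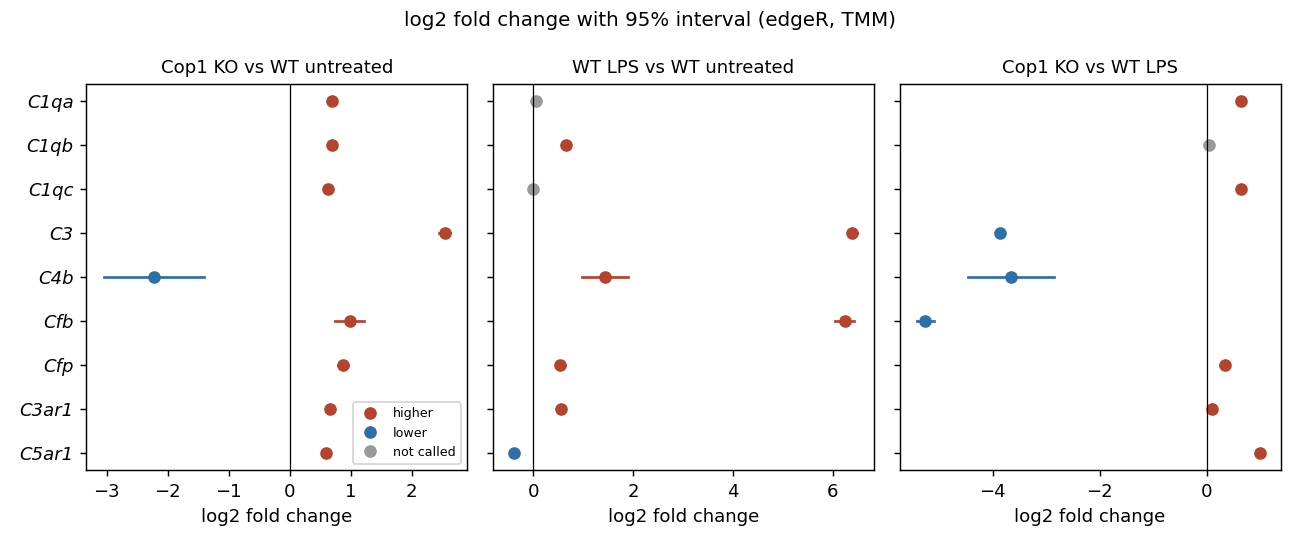
Log2 fold changes of the 9 complement genes with 95% confidence intervals from the edgeR fit, for Cop1 KO and for WT LPS against untreated WT and for Cop1 KO against WT LPS, in red where called higher, blue where called lower and grey where not called. C3 and Cfb rose by 6.40 and 6.25 in WT LPS, against 2.54 and 0.99 in Cop1 KO, and C4b fell in Cop1 KO and rose in WT LPS.

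The C1q chains are encoded by neighbouring genes on the minus strand of chromosome 4 (GRCm38), C1qb at 136880126 to 136886200, C1qc at 136889801 to 136892936 and C1qa at 136895916 to 136898844. Each C1q molecule contains all 3 chains. The 250 bases before the RefSeq start of C1qb (GRCm38.p6, chr4:136886201-136886450, minus strand) are shown because C1qb was the chain whose level departed from its partners under LPS.
C1qb: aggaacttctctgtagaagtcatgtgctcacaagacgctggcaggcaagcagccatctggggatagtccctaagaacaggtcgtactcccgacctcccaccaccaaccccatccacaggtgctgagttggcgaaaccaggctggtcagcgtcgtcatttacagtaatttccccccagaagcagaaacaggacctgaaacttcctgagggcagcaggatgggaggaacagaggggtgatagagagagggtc
None of 5 searched motifs was found in this window on either strand: the interferon-response core GAAANNGAA, the C/EBP half-palindrome TTGCNNAA, the NF-kB form GGNNTTTCC, the GAS form TTCNNNGAA and the PU.1 form GAGGAAG.

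C1qa was at 1406 and 1354 CPM in Cop1 KO libraries, 937 and 839 CPM in WT LPS libraries and 872 and 834 CPM in untreated WT libraries. C1qb was at 1757 and 1725 CPM in Cop1 KO, 1750 and 1639 CPM in WT LPS and 1085 and 1064 CPM in untreated WT. C1qc was at 2088 and 2036 CPM in Cop1 KO, 1369 and 1269 CPM in WT LPS and 1338 and 1321 CPM in untreated WT. All 3 chains were higher in both Cop1 KO libraries than in either untreated WT library, whereas in WT LPS only C1qb stood clear of untreated WT.

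The chains rose by similar amounts in Cop1 KO against untreated WT. The log2 fold change was 0.69 for C1qa (SE 0.03, adjusted p = 2.8e-25), 0.70 for C1qb (SE 0.03, adjusted p = 5.3e-28) and 0.63 for C1qc (SE 0.03, adjusted p = 5.5e-26). Across all alternative settings these values stayed between 0.44 and 0.83. The 3 genes took 0.547% and 0.533% of all counts in Cop1 KO and 0.392% and 0.383% in untreated WT.

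In WT LPS against untreated WT, C1qb rose by 0.66 (SE 0.03, adjusted p = 1.7e-27). C1qa, at 0.06 (95% interval −0.01 to 0.12, adjusted p = 0.11), and C1qc, at −0.01 (95% interval −0.07 to 0.05, adjusted p = 0.73), did not pass the test. The direction of C1qa and C1qc depended on how the libraries were scaled: median-of-ratios factors gave 0.20 and 0.13, both called higher, and library size alone gave −0.51 and −0.58, both called lower. C1qb was called higher under each scaling but was at 0.09 with library size alone.

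The balance of the chains within a library does not depend on scaling. C1qb over C1qa, as a ratio of nRPKM, was 1.27 and 1.30 in Cop1 KO libraries, 1.90 and 1.99 in WT LPS libraries and 1.27 and 1.30 in untreated WT libraries. C1qb over C1qc was 0.871 and 0.877 in Cop1 KO, 1.32 and 1.34 in WT LPS and 0.839 and 0.834 in untreated WT. C1qa over C1qc stayed between 0.642 and 0.695 in all 6 libraries. C1qb therefore gained on both partners in WT LPS and the Cop1 KO libraries kept nearly the untreated proportions. With 2 libraries against 2, the exact two-sided permutation test of such a ratio cannot go below p = 0.333, the value reached for both C1qb ratios in WT LPS against untreated WT.

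**Figure D3:**
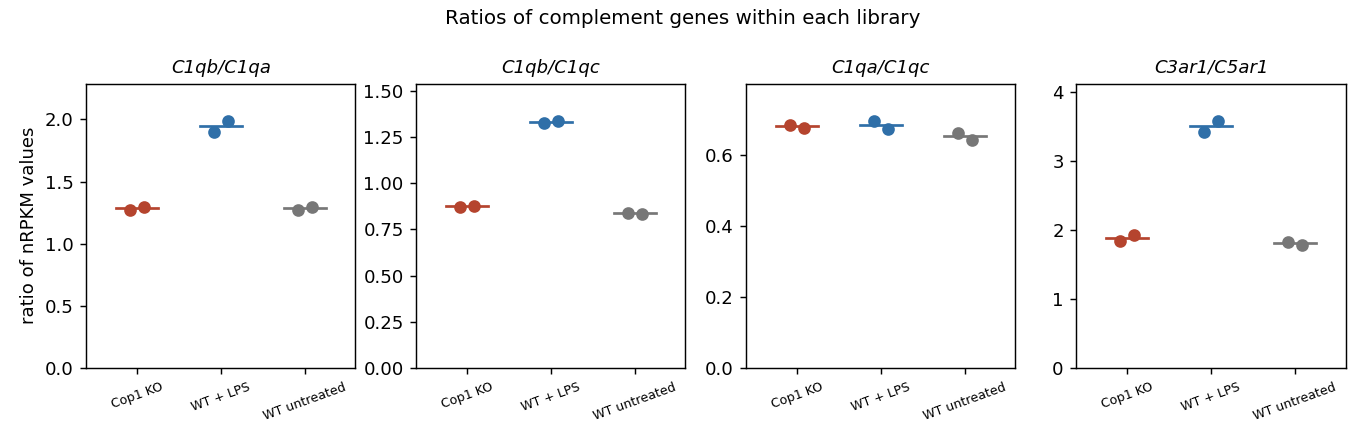
Ratios between complement genes within each library, from nRPKM, 1 point a library. C1qb over C1qa and over C1qc and C3ar1 over C5ar1 were close in Cop1 KO and untreated WT and higher in WT LPS, while C1qa over C1qc stayed between 0.642 and 0.695 in all 6 libraries; lines are means of the 2 libraries of a group.

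Markers of microglia were higher in Cop1 KO, where C1q was higher, and lower in WT LPS, where C1qb was higher. Summed over 10 microglia markers, the level was 2752 and 2745 nRPKM in Cop1 KO, 1128 and 1113 nRPKM in WT LPS and 1722 and 1705 nRPKM in untreated WT. Of the 10, 8 were called higher and none lower in Cop1 KO against untreated WT, with a median log2 fold change of 0.46. Against the same WT libraries, 3 were higher and 7 lower in WT LPS. None of the 10 was at 0 in all libraries. Per 1000 units of the summed markers other than Itgam, which also encodes a complement receptor chain, the 3 C1q genes stood at 1410 and 1383 in Cop1 KO, 2880 and 2725 in WT LPS and 1316 and 1301 in untreated WT. In bulk RNA more cells of a type and more RNA per cell cannot be told apart, and the part of these marker shifts in the C1q values was not tested.

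C3 lies on the minus strand of chromosome 17 (GRCm38, 57203967 to 57228136) and had the largest rise of the 9 genes in both comparisons with untreated WT. The 250 bases before its start (RefSeq, GRCm38.p6, chr17:57228137-57228386, minus strand) are shown with a match to the C/EBP half-palindrome in capitals.
C3: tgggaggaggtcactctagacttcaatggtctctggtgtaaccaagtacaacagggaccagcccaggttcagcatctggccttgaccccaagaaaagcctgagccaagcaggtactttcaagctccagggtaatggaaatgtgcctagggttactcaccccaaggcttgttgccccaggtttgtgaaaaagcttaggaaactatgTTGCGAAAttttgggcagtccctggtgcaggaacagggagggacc
The match, TTGCGAAA, lies 45 to 38 bases before the start, and 9.57% of 32817 promoter windows of this length held a match to the same pattern on either strand. No match to the other 4 patterns was found in it, and a match to letters is not a binding site. Windows were at hand for 6 of the 9 genes. C1qc held the PU.1 form, C3ar1 the NF-kB form and C5ar1 the interferon-response core, patterns found in 10.6%, 4.93% and 7.12% of all windows. Cfp held none. The window of C5ar1 (chr7:16259339-16259588) lies mostly within the gene, which extends to 16259540. The start used for C1qc lies 151 bases into its longest coding transcript. Not all of these windows are therefore upstream of the whole gene.

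C3 was at 166 and 167 CPM in Cop1 KO libraries, 2412 and 2422 CPM in WT LPS libraries and 28.1 and 29.2 CPM in untreated WT libraries. The groups were far apart and the 2 libraries of each close together. C3 rose 5.83-fold in Cop1 KO against untreated WT (log2 fold change 2.54, SE 0.04, adjusted p = 2.7e-46), and 50 of the 15585 genes had a larger increase. It rose 84.4-fold in WT LPS against untreated WT (6.40, SE 0.04, adjusted p = 1.9e-67), where 197 genes had a larger increase. Against WT LPS, Cop1 KO was 14.5-fold lower (−3.86, SE 0.03, adjusted p = 8e-61). The C3 level per 1000 units of the summed microglia markers other than Itgam was 9.42 and 9.54 in Cop1 KO, 360 and 370 in WT LPS and 2.36 and 2.49 in untreated WT.

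Cfb lies on chromosome 17 (GRCm38, 34856374 to 34862514, minus strand). Its value carries a limit of counting: 79.5% of its exonic bases also belong to Gm20547, a gene model on the same strand that covers 42.8% of the exonic bases of C2 as well, and 81.4% of the 50-base windows of the Cfb transcript occur in Gm20547. The annotation used gave no identifier for Gm20547, so whether it was among the models counted could not be looked up. How reads shared between models were assigned is stated nowhere in the sources used. Cfb had 188 and 212 counts in Cop1 KO libraries, 6288 and 5500 counts in WT LPS libraries and 112 and 122 counts in untreated WT libraries. It rose 1.98-fold in Cop1 KO (log2 fold change 0.99, SE 0.12, adjusted p = 1.4e-10) and 75.9-fold in WT LPS (6.25, SE 0.10, adjusted p = 5.8e-57), each against untreated WT. C2, the neighbouring protease of the classical convertase, was at 67.0 and 69.6 CPM in Cop1 KO, 179 and 182 CPM in WT LPS and 52.6 and 51.8 CPM in untreated WT. Its log2 fold change in WT LPS against untreated WT was 1.79 (SE 0.05, adjusted p = 1.6e-38).

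C3 and Cfb did not move in proportion. Their ratio in nRPKM was 10.7 and 9.77 in Cop1 KO libraries, 3.75 and 3.98 in WT LPS libraries and 3.45 and 3.51 in untreated WT libraries. The Cop1 KO libraries were thus set apart by more C3 for each unit of Cfb, and the WT LPS libraries lay only just above untreated WT. The exact two-sided permutation p was 0.333 for each pair of groups, the smallest these group sizes allow.

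C4b, the mouse C4 of the classical convertase, lies on chromosome 17 (GRCm38, 34728139 to 34743902, minus strand) and was scarce. It had 7 and 10 counts in Cop1 KO libraries, 88 and 79 counts in WT LPS libraries and 50 and 43 counts in untreated WT libraries. It fell by 2.22 on the log2 scale in Cop1 KO (SE 0.41, adjusted p = 4.5e-07) and rose by 1.43 in WT LPS (SE 0.23, adjusted p = 1.2e-07), each against untreated WT. On the log2(nRPKM + 1) scale, which shrinks low values, these were −0.20 and 0.43, both still called. C4b was the one complement gene of the 9 that was lower in Cop1 KO than in untreated WT.

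Of the 50-base windows of the C4b transcript, 35.2% also occur in C4a, a close copy. Only reads with a unique alignment were counted, so reads from those windows may be missing from both genes. C4a had 11 and 14 counts in Cop1 KO, 38 and 37 in WT LPS and 23 and 27 in untreated WT. The ratio of C4b to C4a in nRPKM was 0.581 and 0.652 in Cop1 KO, 2.11 and 1.95 in WT LPS and 1.98 and 1.45 in untreated WT. By these values C4b was the scarcer of the pair in Cop1 KO libraries alone. The shared windows limit this ratio.

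Markers of other cell types changed in these comparisons too, some with C4b and some against it. Of 11 astrocyte markers, 10 were called lower and 1 higher in Cop1 KO against untreated WT (median log2 fold change −3.83). Of 8 oligodendrocyte lineage markers tested, 6 were lower and 1 higher there (median −2.27), and all 9 neuron markers tested were lower (median −4.08). Of 6 endothelial and mural markers tested, 4 were higher and 1 lower there (median 0.92), and of 7 fibroblast markers 4 were higher and 2 lower (median 0.98). Of 5 markers of peripheral monocytes and macrophages tested, 1 was higher (Ms4a7, 0.70) and 3 lower there (median −0.92). In WT LPS against untreated WT, 1 of these 5 was higher and 4 lower. The 8 listed summed to 284 and 292 nRPKM in Cop1 KO, 248 and 251 nRPKM in WT LPS and 185 and 187 nRPKM in untreated WT, most of it from Ms4a7. Gfap, the astrocyte filament protein, was at 6.26 and 5.47 CPM in Cop1 KO, 343 and 338 CPM in WT LPS and 314 and 314 CPM in untreated WT. The neuron markers summed to 0.670 and 0.748 nRPKM in Cop1 KO, 10.7 and 11.6 nRPKM in WT LPS and 10.2 and 10.3 nRPKM in untreated WT, with Gad2 and Nefl at 0 in both Cop1 KO libraries. In WT LPS against untreated WT, 5 astrocyte markers were higher, 2 lower and 4 not called (2 higher and 8 lower with library size alone), and 5 of 6 endothelial and mural markers were higher, their sum being 24.9 and 24.7 nRPKM in WT LPS and 13.1 and 13.1 nRPKM in untreated WT. Oligodendrocyte lineage markers were 1 higher and 4 lower of 8 and neuron markers 1 higher and 2 lower of 9 in the same comparison. Fibroblast markers were 3 higher and 1 lower of 7 there (with library size alone, 1 higher and 4 lower). Of all 15585 genes tested, library size alone called 2678 higher and 10770 lower there. In Cop1 KO, C3 and Cfb rose and the astrocyte sum was lower. The endothelial and mural sum was higher, at 16.8 and 17.0 nRPKM in Cop1 KO against 13.1 and 13.1 nRPKM in untreated WT. The fibroblast sum was lower, at 80.3 and 80.5 nRPKM in Cop1 KO against 86.9 and 87.8 nRPKM in untreated WT, although 4 of 7 fibroblast markers were higher. The part of any of these cells in the values of the 9 complement genes was not tested.

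Properdin, the one complement protein known to stabilise the alternative convertase, was at 143 and 143 CPM in Cop1 KO libraries, 117 and 108 CPM in WT LPS libraries and 79.5 and 76.2 CPM in untreated WT libraries (Cfp, chromosome X, 20925454 to 20931555). The 3 groups did not overlap. Cfp rose by 0.88 on the log2 scale in Cop1 KO (SE 0.04, adjusted p = 2e-24) and by 0.54 in WT LPS (SE 0.05, adjusted p = 1.6e-15), each against untreated WT, but with library size alone the WT LPS value was −0.027 and was not called (adjusted p = 0.57).

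C3ar1, the C3a receptor (chromosome 6, 122847140 to 122856157), was at 1802 and 1864 CPM in Cop1 KO libraries, 1666 and 1760 CPM in WT LPS libraries and 1152 and 1170 CPM in untreated WT libraries. It rose by 0.66 in Cop1 KO (SE 0.03, adjusted p = 3.2e-27) and by 0.56 in WT LPS (SE 0.03, adjusted p = 9.8e-25), although the WT LPS value was −0.0017 with library size alone (adjusted p = 0.95). C5ar1, the C5a receptor (chromosome 7, 16246743 to 16259540), was at 587 and 578 CPM in Cop1 KO, 291 and 294 CPM in WT LPS and 378 and 392 CPM in untreated WT. It rose by 0.60 in Cop1 KO (SE 0.03, adjusted p = 1.8e-23) and fell by 0.40 in WT LPS (SE 0.03, adjusted p = 5.5e-16), a fall that was called under each scaling with values of −0.96 to −0.23.

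The 2 receptors therefore rose together in Cop1 KO and parted in WT LPS. C3ar1 over C5ar1 in nRPKM was 1.84 and 1.93 in Cop1 KO, 3.42 and 3.58 in WT LPS and 1.82 and 1.79 in untreated WT. Against WT LPS, Cop1 KO libraries had 1.99-fold more C5ar1 (log2 fold change 0.99, SE 0.03, adjusted p = 3.3e-33).

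**Figure D4:**
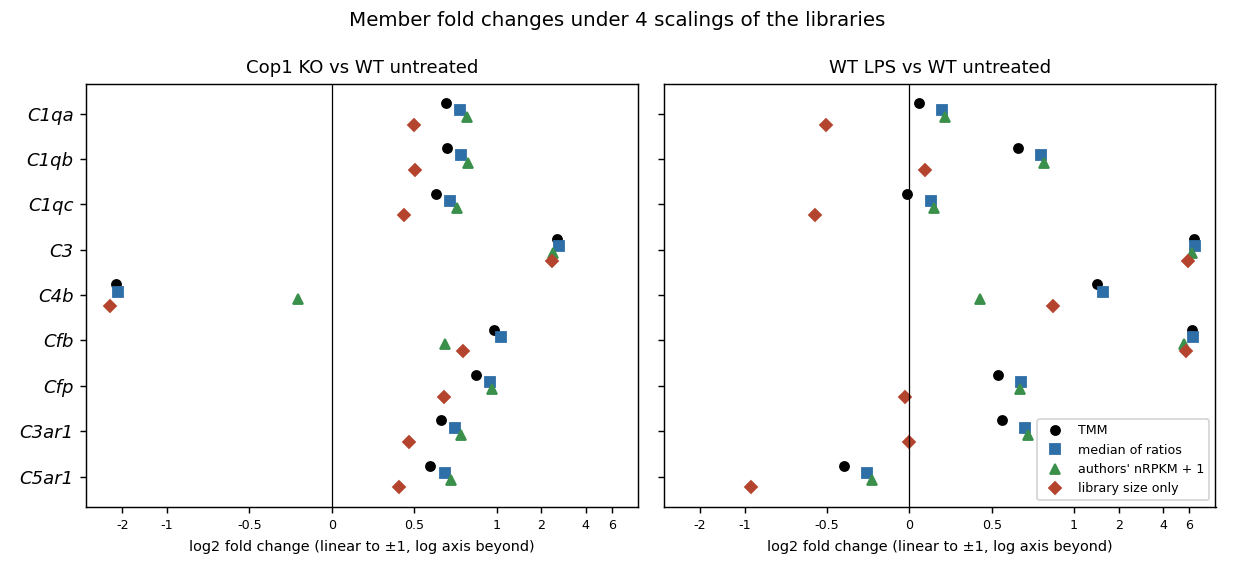
Log2 fold changes of the 9 complement genes against untreated WT under 4 ways of scaling the libraries, on an axis that is linear to ±1 and logarithmic beyond. In Cop1 KO no gene changed side, and in WT LPS the values of C1qa, C1qc, Cfp and C3ar1 lay on either side of 0 depending on the scaling.

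Set directly against WT LPS microglia, Cop1 KO microglia had 5 of the 9 genes higher (C1qa, C1qc, Cfp, C3ar1, C5ar1), 3 lower (C3, C4b, Cfb) and C1qb not called. In this comparison 79.6% of genes were called, 39.9% higher and 39.6% lower, and the median log2 fold change was 0.10 for the 9 genes and 0.03 over all genes. C1qa and C1qc were both higher by 0.64 (adjusted p = 3.8e-24 and 6.8e-27), and Cfp by 0.34 (adjusted p = 7e-10). Cfb was 38.3-fold lower in Cop1 KO (log2 fold change −5.26, SE 0.08, adjusted p = 5.3e-55) and C4b was lower by 3.66 on the log2 scale (log2 fold change −3.66, SE 0.40, adjusted p = 2.1e-15). C1qb differed by 0.04 (95% interval −0.02 to 0.10, adjusted p = 0.2), but it was called higher with library size alone (0.41, adjusted p = 4.4e-19), with no filter on low counts (0.061, adjusted p = 0.04) and without the WT LPS library numbered 1 (0.091, adjusted p = 0.00073). The small C3ar1 difference of 0.10 (SE 0.03, adjusted p = 0.0014) was lost with median-of-ratios factors (0.04, adjusted p = 0.17), with DESeq2 (adjusted p = 0.32) and with limma (adjusted p = 0.25).

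A further 49 complement genes were listed by role, of which 11 had no count in any library and 26 passed the filter. Of these 26, 11 were higher, 9 lower and 6 not called in Cop1 KO against untreated WT, with a median log2 fold change of 0.08. Over all genes tested, 28.1% were higher and 30.3% lower there, with a median of −0.01. In WT LPS against untreated WT 8 of the 26 were higher, 10 lower and 8 not called, with a median of −0.19. Over all genes, 30.2% were higher and 43.4% lower there, and the median of −0.18 was nearly the same. Library size alone turned the split of the 26 to 7 higher and 11 lower in Cop1 KO and to 5 higher and 18 lower in WT LPS. Of all 15585 genes tested, that scaling called 2319 higher and 7200 lower in Cop1 KO. In WT LPS it called 2678 of all genes higher and 10770 lower. Between Cop1 KO and WT LPS, 11 of the 26 were higher in Cop1 KO, 12 lower and 3 not called. There 39.9% of all genes were higher and 39.6% lower.

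The regulators of complement held the widest changes. Clusterin (Clu), which blocks the membrane attack complex and is also in the astrocyte list, was at 8.10 and 8.25 CPM in Cop1 KO, 150 and 145 CPM in WT LPS and 128 and 127 CPM in untreated WT, a log2 fold change of −3.96 in Cop1 KO against untreated WT (SE 0.08, adjusted p = 2.8e-46). Of 7 membrane regulators tested, 5 were lower in Cop1 KO than in untreated WT and 1 was higher. Over all genes, 30.3% were lower and 28.1% higher there. Of the 7, 4 were lower with median-of-ratios factors, with DESeq2 and with limma on log2(nRPKM + 0.1), and 3 with limma on log2(nRPKM + 1). Among the 5 were Susd4 at −3.78, Csmd2 at −3.08 and Csmd1 at −2.86. These are genes known from neural tissue, each under 1 CPM in both Cop1 KO libraries. Neuron and astrocyte markers fell in the same comparison (median log2 fold change −4.08 and −3.83). The part of those cells in the falls of Clu and the membrane regulators was not tested. Serping1, the inhibitor of the C1 proteases, had 10 and 12 counts in Cop1 KO, 971 and 843 counts in WT LPS and 1 and 4 counts in untreated WT. It was called higher in both groups against untreated WT (adjusted p = 0.0012 in Cop1 KO and 9.2e-42 in WT LPS), and its size there rests on 1 and 4 counts.

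C1ra, a protease that is cleaved within the C1 complex, rose by 2.12 in WT LPS (SE 0.16, adjusted p = 2.9e-18) and by 0.45 in Cop1 KO (SE 0.18, adjusted p = 0.029), each against untreated WT. C1s1, which encodes the C1s protease, fell by 2.35 in Cop1 KO against untreated WT (SE 0.49, adjusted p = 3.6e-06), with 7 and 5 counts in Cop1 KO and 31 and 41 counts in untreated WT, and rose by 0.93 in WT LPS (SE 0.28, adjusted p = 0.0022). With library size alone neither the C1ra rise in Cop1 KO (0.26, adjusted p = 0.22) nor the C1s1 rise in WT LPS (0.37, adjusted p = 0.2) was called. The C1ra call in Cop1 KO was also lost without the Cop1 KO library numbered 2 (0.36, adjusted p = 0.17) and without the untreated WT library numbered 2 (0.39, adjusted p = 0.15). Masp1 and Masp2, proteases of the lectin pathway, rose in Cop1 KO by 0.61 and 0.49 (adjusted p = 2e-06 and 0.00081), but Masp2 was not called without the Cop1 KO library numbered 2 (0.28, adjusted p = 0.12).

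Of 7 further receptors tested, none was higher and 6 were lower in WT LPS than in untreated WT, while in Cop1 KO 4 were higher and 2 lower. Over all genes, 30.2% were higher and 43.4% lower in WT LPS, and 28.1% higher and 30.3% lower in Cop1 KO. None of the 7 was higher in WT LPS under any scaling, with 5 lower by median-of-ratios factors and 7 by library size alone. Of all 15585 genes tested, those scalings called 5667 and 10770 lower there. With limma, 4 of the 7 were lower on log2(nRPKM + 1) and 3 on log2(nRPKM + 0.1), beside 5340 and 5284 of all genes. In Cop1 KO, library size alone left 2 of the 7 higher and 2 lower, beside 2319 of all genes higher and 7200 lower. C5ar2, the second C5a receptor, was at 27.1 and 27.5 CPM in Cop1 KO, 3.30 and 3.74 CPM in WT LPS and 24.7 and 23.3 CPM in untreated WT, and fell by 2.77 in WT LPS (SE 0.14, adjusted p = 1.9e-27). C5ar1 over C5ar2 in nRPKM was 42.2 and 41.0 in Cop1 KO, 172 and 153 in WT LPS and 29.8 and 32.7 in untreated WT. Cd93, a receptor first described as binding C1q, fell by 1.10 in WT LPS (adjusted p = 3.6e-26).

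**Figure D5:**
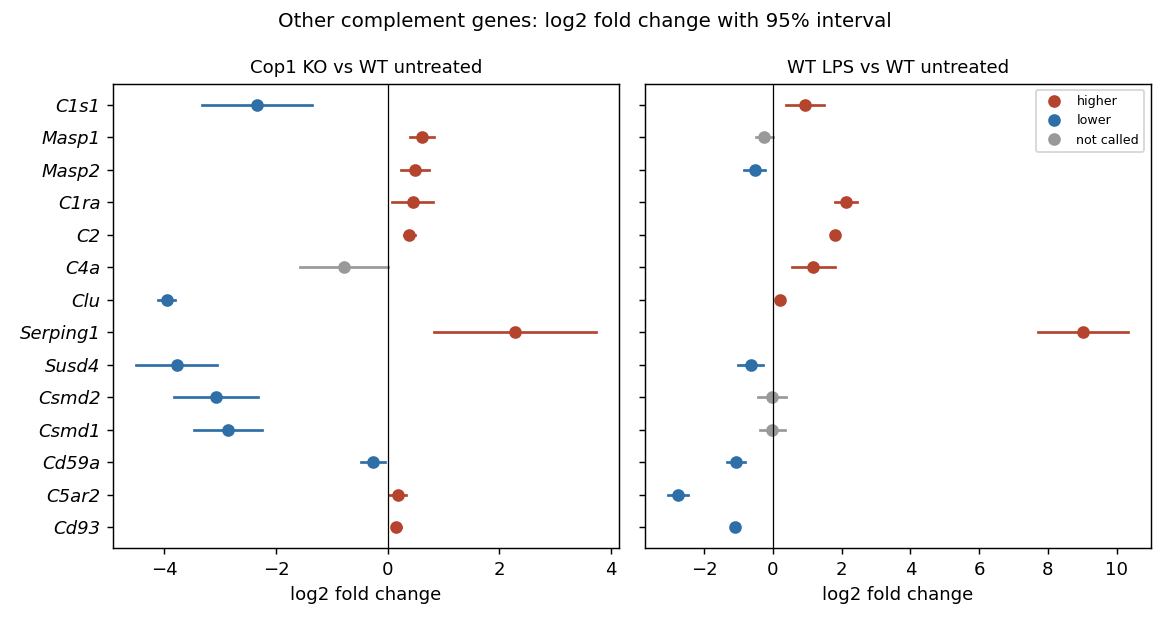
Log2 fold changes with 95% intervals of other complement genes that the naming rule picked, for Cop1 KO and WT LPS against untreated WT, ordered by role, in red where called higher, blue where called lower and grey where not called. Clu, Susd4, Csmd1 and Csmd2 were low in Cop1 KO, and Serping1 lay at 9.01 in WT LPS on 1 and 4 counts in untreated WT.

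The genes most like C3 over the 6 libraries, by the distance between centred log2 CPM profiles among 10378 named genes, were Ifit3, Ifit3b, Ifi209 and Zbp1, all known as interferon-induced genes. The nearest, Ifit3, had log2 fold changes of 2.55 in Cop1 KO and 6.40 in WT LPS against untreated WT, at a distance of 0.03. Nearest to the mean of the 3 C1q genes were Osm, Grn, P2ry6 and Csf2rb2, and nearest to Cfb were Nupr1, Il15ra, Bambi-ps1 and Cst7. These are descriptions of likeness over the same libraries, with no test.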

How the data were processed

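Polyadenylated RNA of 6 mouse microglia libraries was read as single-end 50-base reads from a kit that does not keep the strand, per the labels' protocols. Reads were aligned with GSNAP to GRCm38, per the submitters' processing notes; the sources used here give no version, counting tool or annotation release. Counts, deposited by the authors, are of reads with a unique alignment to a gene model, per the file headers. RPKM values were deposited by the authors after multiplication by a size factor per library (nRPKM), per the file headers; they served for levels between genes and for ratios.

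Of 36528 identifiers, 31049 took symbols from a RefSeq table; unnamed ones held 1.08% to 1.31% of counts. Counts were tested in R 4.3.3 with edgeR 4.0.16 (TMM, filterByExpr by group, glmQLFit and glmQLFTest, all 6 libraries in 1 fit with 3 residual degrees of freedom). Calls were made at a Benjamini-Hochberg adjusted p below 0.05 over 15585 genes. The procedure was checked on simulated counts in which few genes changed, unlike these data, so the check does not cover calls that depend on scaling. Within each group the 2 libraries differed by more than counting noise (chi-square per degree of freedom 1.60 to 2.57). Alternatives used median-of-ratios factors, library size alone, no filter, DESeq2 1.42.0, only the groups compared, limma 3.58.1 on log2(nRPKM + 1) and log2(nRPKM + 0.1), and each library left out.

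The 9 genes and the lists were chosen with earlier results of these data known. Named were the 9 genes, Cop1 and genes sharing sequence with the 9. In each comparison the 8 other complement genes with the largest called change at a mean of at least 1 CPM were named. Others of the list are counted. Also named were the 4 genes most alike C3, Cfb and the C1q mean at 5 CPM or more. C5ar1 was also set beside C5ar2, and markers are given by list, with Csf1r, P2ry12, Tmem119, Gfap, Gad2, Nefl and Ms4a7 singled out after their values were seen. A gene that the rule picks is not reported here and stays in all counts.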

Additional observations from a re-analysis of the deposited data

How the results depend on the processing

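In Cop1 KO against untreated WT all 9 complement genes kept their direction and their call under every alternative. In WT LPS against untreated WT, values on the other side of 0 were −0.51 for C1qa, −0.027 for Cfp and −0.0017 for C3ar1 with library size alone. C1qc was at 0.13 with median-of-ratios factors, with DESeq2 and with only the groups compared, and at 0.15 with limma at either pseudocount. Leaving out each library in turn gave C1qa −0.024 to 0.138 and C1qc −0.068 to 0.045. In Cop1 KO against WT LPS, C1qb was at −0.0157 with DESeq2 and −0.0158 with median-of-ratios factors, at 0.41 (called higher) with library size alone, and at −0.0068 to 0.091 over the libraries left out, the lowest without WT LPS library 2 and the highest without WT LPS library 1. TMM factors were 1.04 in Cop1 KO, 0.806 in WT LPS and 1.19 in untreated WT libraries. Leaving them out, as with library size alone, moves the log2 fold changes of all genes in a comparison by nearly the same amount. What lies behind the differences between scalings and between libraries left out was not tested. With library size alone the median over all genes was at −0.20 (log2) in Cop1 KO, −0.74 in WT LPS and 0.40 between them. The share of calls that were higher was 48.1% in Cop1 KO against untreated WT, 24.4% with library size alone, 58.4% with median-of-ratios factors and 64.1% with limma on log2(nRPKM + 1). For WT LPS against untreated WT it was 41.1%, and 19.9%, 49.6% and 51.0% with those settings and 51.1% with DESeq2. Between Cop1 KO and WT LPS it was 50.2%, and 64.5% with library size alone. C4b rests on 7 and 10 counts in Cop1 KO, so its precision there is limited by depth. No paired analysis was possible because the labels carry no replicate numbers or pairing.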

Other observations

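The proteases of the 2 C3 convertases changed places in level. Cfb over C2 in nRPKM was 0.129 and 0.137 in Cop1 KO libraries, 1.99 and 1.86 in WT LPS libraries and 0.0860 and 0.0895 in untreated WT libraries, so C2 mRNA exceeded Cfb mRNA per length in Cop1 KO and untreated WT and not in WT LPS. The exons that both genes share with Gm20547 limit this ratio. The exact two-sided permutation p was 0.333 for each pair of groups, the smallest that 2 libraries against 2 allow.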
